A study of Mus musculus with 40 samples.

Results

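The miR-148 and miR-152 family was described here across 4 mouse tissues by 4 mature miRNAs taken by name from the count table: mmu-miR-148a-3p, mmu-miR-148b-3p and mmu-miR-152-3p, and mmu-miR-148a-5p from the other arm of the miR-148a hairpin (the mouse prefix mmu is dropped from here on). They are 4 of the 1894 entries of the table. The donors were 10 male mice, aged 8 to 12 weeks and fed standard chow, and the tissues were liver, hypothalamus, brown fat and gastrocnemius muscle. Every mouse carried a Cre recombinase driven by the Ucp1 promoter, which is active in brown adipocytes, together with the Cre-dependent transgene CAG-GFP-UPRT, and every mouse received 4-thiouracil (4TU) by intraperitoneal injection at 50 mg/kg, 4 times at intervals of 48 h. The enzyme UPRT builds 4TU into a uridine nucleotide that cells put into new RNA. A tissue is represented by 5 input libraries, made from its total small RNA, and by 5 IP libraries, made from the biotinylated thiol RNA that streptavidin captured. There are 8 groups and 40 libraries. No group without 4TU, Cre or UPRT is among the samples, so the level that the capture gives without label was not measured here. Pool 1 of the sequencing held the inputs and pool 2 the IPs, and for that reason an effect of the pool cannot be told apart from one of the capture.

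A miRNA is cut from a hairpin whose arms give a 5p and a 3p strand. Usually a single arm, the guide, is kept in an Argonaute protein, where bases 2 to 8, the seed, choose the target mRNAs. The 3p strands of miR-148a, miR-148b and miR-152 share their seed and so are grouped as a family with overlapping predicted targets. miR-148a-3p is known as an abundant miRNA of hepatocytes with a part in cholesterol and lipoprotein metabolism, among its targets the LDL receptor mRNA, and it has also been studied in adipocyte differentiation.

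The mature sequences are shown because the seed, the bases that tell the members apart and the uridines that 4TU could replace all lie in them. They are RefSeq sequences for GRCm38.p6, written 5′ to 3′ with the seed in capitals.
miR-148a-3p: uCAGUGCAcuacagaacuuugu
miR-148b-3p: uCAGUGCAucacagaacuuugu
miR-152-3p: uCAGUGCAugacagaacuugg
miR-148a-5p: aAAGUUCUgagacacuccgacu
The seed CAGUGCA was found in 3 mature miRNAs among the 1610 table entries with a RefSeq sequence, and these are the 3 family members. Counted from 1 at the 5′ end of miR-148a-3p, miR-148b-3p differs by C9U and U10C, and miR-152-3p by C9U, U10G and U20G. miR-152-3p is 21 bases long and the other three are 22. miR-148a-3p and miR-148b-3p hold the same bases in another order and have 7 uridines each, while miR-152-3p and miR-148a-5p have 5; the median over the 1610 entries is 6. The miR-148a hairpin lies on chromosome 6 (51269812 to 51269910, minus strand, GRCm38), outside any other annotated gene. The nearest protein-coding gene is Nfe2l3, 162760 bases away. The miR-148b hairpin (chromosome 15, 103285125 to 103285221, plus strand) lies in an intron of Copz1, and the miR-152 hairpin (chromosome 11, 96850393 to 96850465, plus strand) in an intron of Copz2. Copz1 and Copz2 encode the zeta subunits of the COPI coat of transport vesicles, and each hairpin is on the strand of its host gene.

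Library totals ran from 153036 to 5562487 counts in the inputs and from 11928 (liver IP library 4) to 921297 in the IPs. The markers of each labelled tissue were present in its inputs: brown adipocyte miRNAs made up 9.45% to 13.2% of brown fat counts, hepatocyte miRNAs 45.3% to 52.2% of liver counts, striated muscle miRNAs 63.1% to 65.4% of muscle counts and neuron miRNAs 5.02% to 20.4% of hypothalamus counts. Brown fat inputs also held 6.92% to 29.4% of striated muscle miRNAs. Some hypothalamus libraries stood apart. In input library 4 (mouse 8, 153036 counts) the 6 striated muscle markers made up 18.9% of counts, against 0.155% to 0.259% in the other 4 inputs. In both libraries 5 (mouse 9) and in input 4, miR-375-3p, a miRNA of endocrine cells picked after its values were seen, was at 1.77% to 9.66% of counts, against 0.00946% to 0.0388% in the other 7 hypothalamus libraries. The hypothalamus tests and the family shares of its inputs are therefore also given without libraries 4 and 5 of input and IP.

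In the inputs miR-148a-3p was an abundant miRNA of liver, brown fat and hypothalamus and a minor one of muscle. Levels are in CPM, the count of a miRNA scaled to a common total of all miRNA counts in its library. In liver it was at 73204.5, 67955, 75053, 66857 and 106245 CPM in libraries 1 to 5, and ranked 3 or 4 among all entries in each. In brown fat it was at 19634, 26746, 26651, 29267 and 26879.8 CPM, and ranked 9 to 11. These groups did not overlap, and every liver input was above every brown fat input. In hypothalamus it was at 13832, 14844, 12365, 35137 and 47278 CPM, where libraries 4 and 5 were the high ones. In muscle it was at 1498, 1687, 1136, 1181 and 1199.6 CPM, below every library of the other tissues. In bulk tissue, fewer cells of a type and less RNA per cell cannot be told apart. By mean CPM the order was liver (77863 ± 16236, SD, n = 5), brown fat (25836 ± 3634), hypothalamus (24691 ± 15701) and muscle (1340.3 ± 241). Brown fat and hypothalamus overlapped, and the other neighbours in that order did not. The lowest brown fat input, library 1, had the highest share of striated muscle markers in that group, 29.4% against 6.92% to 18.7% in the other 4 brown fat inputs, and the part of this in its level was not tested.

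**Figure D1:**
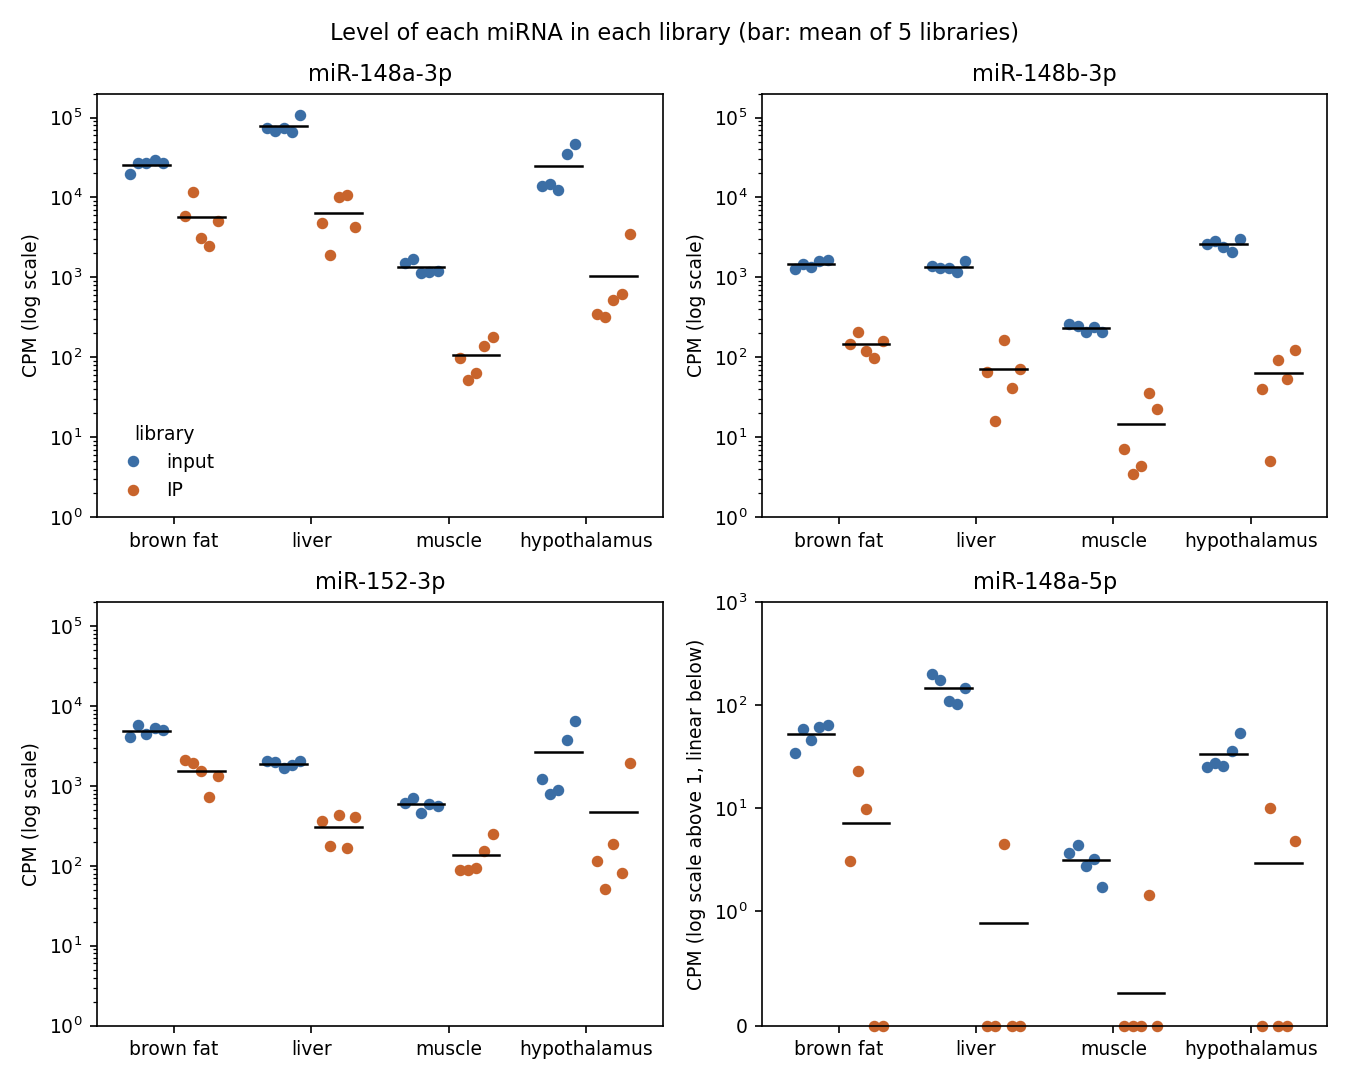
Each point is a library, the vertical axis is its level in CPM (log scale; for miR-148a-5p linear below 1), and the black bar is the mean of 5 libraries of brown fat, liver, muscle or hypothalamus. Input points (blue) lie above IP points (orange) of the same tissue for every member, except for miR-152-3p in hypothalamus, where IP library 5 at 1908 CPM lies above inputs 1 to 3.

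miR-148b-3p and miR-152-3p spanned a narrower range of tissues than miR-148a-3p. miR-148b-3p was at 2632, 2840.1, 2413, 2068 and 3000.5 CPM in hypothalamus, the tissue with its highest CPM. Brown fat, at 1258, 1489, 1334, 1591 and 1667 CPM, overlapped with liver, at 1376, 1303, 1313, 1181 and 1624 CPM. Muscle was lowest at 262, 248, 206, 238 and 208 CPM. In CPM, hypothalamus was thus above, and muscle below, every library of the other tissues for this member. The place of hypothalamus depends on the scaling. With the scaling of the tests below, liver was above hypothalamus instead (log2 difference 0.70, adjusted p = 0.00719, edgeR), a call that some alternatives did not keep. miR-152-3p was highest in brown fat at 4133, 5837, 4442, 5271 and 4976 CPM, and did not overlap there with liver, at 2054, 1966, 1652, 1800.3 and 2044 CPM. In muscle it was at 606, 714, 458, 585 and 567 CPM. In hypothalamus it ran from 793 to 1224 CPM in libraries 1 to 3 and reached 3797 and 6513 CPM in libraries 4 and 5. That spread, 2644 ± 2490.4 CPM (SD, n = 5), covered the level in liver and reached that in brown fat.

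The inputs were compared pairwise with the quasi-likelihood test of edgeR over the 20 input libraries, with trimmed mean of M values (TMM) scaling and Benjamini-Hochberg adjustment over 444 miRNAs. This scaling allows for a few very abundant miRNAs that push down the CPM of all others, so its fold changes differ from ratios of CPM. miR-148a-3p was lower in brown fat than in liver by a log2 difference of -2.89 (SE 0.46, adjusted p = 3.41e-05), as were miR-148a-5p (-2.82) and miR-148b-3p (-1.18, SE 0.23, adjusted p = 0.000231). These are 3 of 4 members, where 19.6% of all tested miRNAs were called lower. The median over all tested was 0.16. For miR-148b-3p the call ended with the mouse as a block (-0.74, adjusted p = 0.137), and with total count as the only scaling the difference was 0.11. Brown fat was above muscle for miR-148a-3p (2.10, SE 0.44, adjusted p = 0.000722) and miR-148a-5p (1.87, SE 0.38), 2 of 4 members, with 22.7% of all tested called higher. miR-148b-3p was at 0.50 (SE 0.22, adjusted p = 0.0837) and was called with the mouse as a block (0.89, adjusted p = 0.0357). Liver was above muscle by 4.99 (SE 0.50, adjusted p = 5.35e-08) for miR-148a-3p, 4.69 for miR-148a-5p and 1.68 for miR-148b-3p, 3 of 4 members against 27.5% of all tested.

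Against hypothalamus, liver was higher by 3.11 (SE 0.46, adjusted p = 3.03e-06, edgeR) for miR-148a-3p, 3.67 for miR-148a-5p and 0.70 (SE 0.22, adjusted p = 0.00719) for miR-148b-3p, where 32% of all tested were called higher. The miR-148b-3p call ended with the mouse as a block (0.34, adjusted p = 0.327), without a filter (0.64, adjusted p = 0.0657) and with all 40 libraries in the fit (0.50, adjusted p = 0.272), and with total count scaling the value was -0.93. Muscle was lower than hypothalamus for miR-148a-3p (-1.88, SE 0.44, adjusted p = 0.00056), miR-148a-5p (-1.02, SE 0.39, adjusted p = 0.0201) and miR-148b-3p (-0.98, SE 0.22), with 52% of all tested called lower, so 3 of 4 members is a count close to that background. Of the 4 members, 1 differed between brown fat and hypothalamus, miR-148a-5p (0.85, SE 0.36, adjusted p = 0.0339, higher in brown fat, and not called with the mouse as a block, 0.95, adjusted p = 0.0896), where 35.1% were called higher and 48.9% lower. miR-148a-3p was there at 0.22 (SE 0.43, adjusted p = 0.632) and miR-148b-3p at -0.48 (SE 0.22, adjusted p = 0.0516). Without hypothalamus libraries 4 and 5 miR-148a-3p was higher in brown fat than in hypothalamus by 1.55 (adjusted p = 8.63e-06, edgeR). The muscle difference from hypothalamus was then -0.61 for miR-148a-3p, and miR-148a-5p no longer differed between muscle and hypothalamus (-0.32, adjusted p = 0.365, edgeR).

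miR-152-3p passed the threshold in none of the 6 pairs of tissues, although its CPM did not overlap between brown fat, liver and muscle. Its log2 differences were 0.09 for brown fat against liver (95% interval -0.91 to 1.09), 0.92 (-0.08 to 1.93) for brown fat against muscle and 0.84 (-0.17 to 1.84) for liver against muscle. Against hypothalamus they were 0.99 (brown fat, adjusted p = 0.0804), 0.90 (liver) and 0.06 (muscle), each with an SE between 0.51 and 0.52. At an unadjusted p below 0.05 the count was also 0 of 6 with edgeR. The hypothalamus libraries decided 3 of these 6 results. Without libraries 4 and 5, miR-152-3p was higher than in hypothalamus by 2.98 in brown fat (adjusted p = 9.42e-11), 2.87 in liver and 2.001 in muscle, and without input library 5 alone the 3 values were 1.92, 1.83 and 0.99, all called. Brown fat was also called over hypothalamus with all libraries and the mouse as a block (1.82, adjusted p = 0.0349), by DESeq2 (1.24, adjusted p = 0.0108) and by limma-voom (1.82, adjusted p = 0.00248). With total count scaling miR-152-3p was called for brown fat against liver (1.37), brown fat against muscle (3.07), brown fat against hypothalamus (0.90, adjusted p = 0.0499) and liver against muscle (1.70), and for muscle against hypothalamus, where the direction reversed (-2.17).

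Because the 3p members share a seed, their summed counts and their shares of that sum were taken inside each library, which needs no scaling between libraries. The sum made up 8.11% ± 1.65 (SD, n = 5) of all counts in liver inputs, 3.22% ± 0.42 in brown fat, 2.99% ± 1.82 in hypothalamus and 0.216% ± 0.034 in muscle. miR-148a-3p held most of it in every tissue: 95.9% ± 0.52 in liver, 81.3% ± 3.14 in hypothalamus, 80.1% ± 1.61 in brown fat and 62.0% ± 2.05 in muscle. miR-152-3p was the second member in brown fat (15.4% ± 1.42), muscle (27.2% ± 1.73) and liver (2.40% ± 0.39). In hypothalamus miR-148b-3p was above miR-152-3p in libraries 1 to 3, at 14.9% to 15.4% of the sum against 4.29% to 6.92%, and below it in libraries 4 and 5, at 5.04% and 5.28% against 9.26% and 11.5%. Over libraries 1 to 3 the sum was 1.73% ± 0.14 (SD, n = 3) of all counts, and miR-148a-3p held 79.1% ± 1.09 of it, miR-148b-3p 15.2% ± 0.29 and miR-152-3p 5.64% ± 1.32. The family's make-up thus differed between the hypothalamus libraries that stood apart and the other 3.

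**Figure D2:**
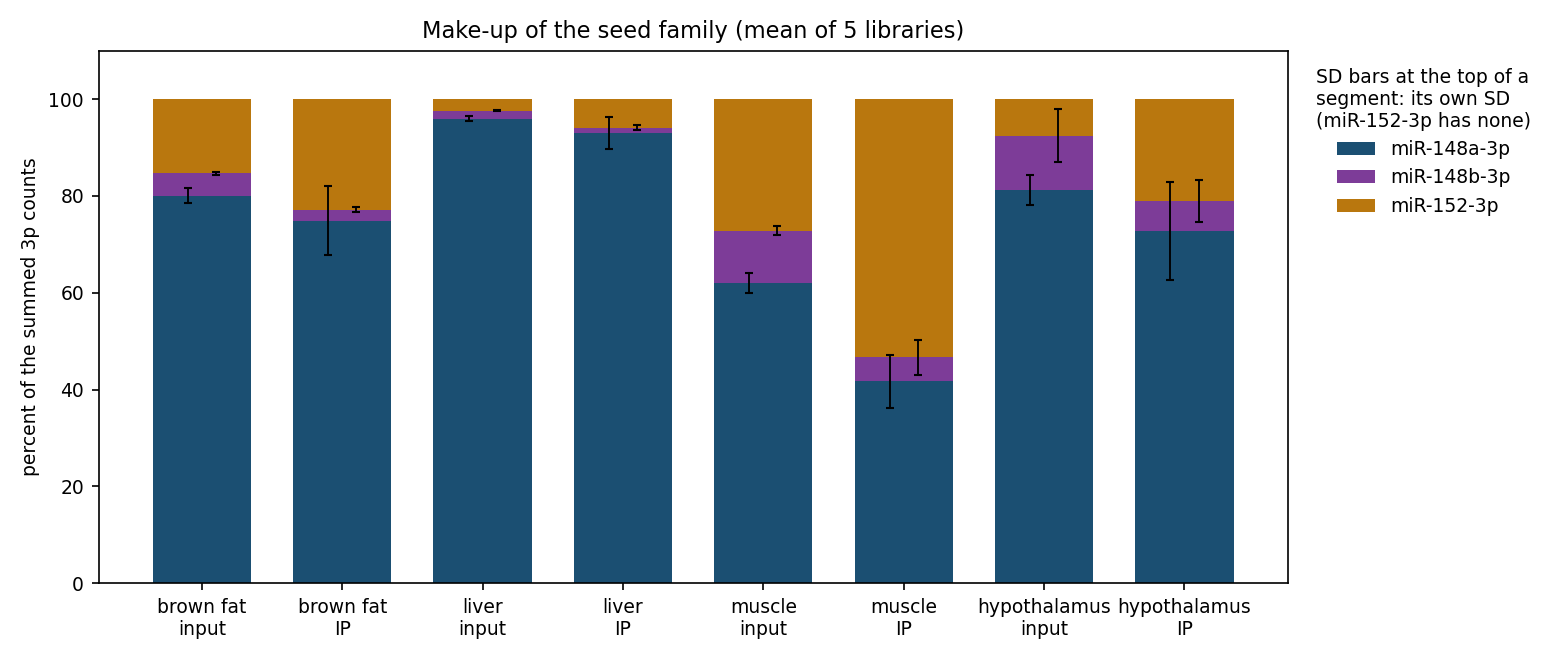
Stacked bars give the mean percent of the summed 3p counts held by miR-148a-3p, miR-148b-3p and miR-152-3p in the inputs and IPs of each tissue (5 libraries each), with SD bars for miR-148a-3p and miR-148b-3p. miR-152-3p holds 53.4% of the sum in muscle IPs, and at most 27.2% in the other 7 groups.

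The ratio of miR-152-3p to miR-148a-3p differed between all 6 pairs of tissue inputs in exact two-sided permutation tests (adjusted p = 0.0143 for each, 18 tests on 3 ratios; with 5 against 5 libraries the smallest unadjusted p is 0.00794). As a geometric mean, miR-152-3p was at 43.8% of miR-148a-3p in muscle, 19.1% in brown fat, 8.74% in hypothalamus and 2.47% in liver, and no 2 of these groups overlapped. Between liver and muscle the log2 ratio differed by 4.15 (SE 0.13). The ratio of miR-148b-3p to miR-148a-3p differed in 4 of 6 pairs (exact permutation test, adjusted p = 0.0143). As a geometric mean it was 17.5% in muscle, 5.70% in brown fat and 1.76% in liver. In hypothalamus it was 19.03%, 19.1%, 19.5%, 5.89% and 6.35% in libraries 1 to 5, so the geometric mean of 12.2% is the level of none of them. The pairs that did not pass were hypothalamus with brown fat (adjusted p = 0.0649) and with muscle (adjusted p = 0.445). Without hypothalamus libraries 4 and 5 (geometric mean 19.2%), the ratio was higher than in brown fat by a log2 difference of 1.75 (adjusted p = 0.0292, exact permutation test) and overlapped with muscle (0.14, adjusted p = 0.321). The ratio of miR-152-3p to miR-148a-3p was then 6.99% in hypothalamus and still differed from each other tissue (adjusted p = 0.0292, exact permutation tests). A ratio of 2 members is a ratio of reads, which the deposited counts do not correct for how well each sequence is captured by the library kit.

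In the IPs every 3p member was at a lower level than in the inputs of its tissue. Of the 20 pairs of input and IP libraries, 19 come from the same mouse, and the IP was the lower library in 19 of 19 for miR-148a-3p, for miR-148b-3p and for miR-152-3p. In brown fat, where the Ucp1 promoter is active, IP levels of miR-148a-3p were 5816, 11805, 3152, 2506 and 5112 CPM. The mean was 4.55-fold below the inputs, and the highest IP was below the lowest input. In liver they were 4844, 1908, 10021, 10841 and 4300.0 CPM, a mean 12.2-fold below the inputs, and in muscle 98.6, 52.4, 63.8, 137 and 182 CPM, 12.6-fold below. In hypothalamus they were 344, 324, 515, 612 and 3485 CPM, a mean 23.4-fold below, with library 5 far above the other 4. Brown fat and liver, whose inputs did not overlap, thus overlapped in the IPs.

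miR-148b-3p was at 149, 209, 120.3, 97.3 and 158 CPM in brown fat IPs. Liver IPs had 65.8, 16.0, 166, 41.9 and 71.0 CPM, muscle IPs 7.06, 3.45, 4.32, 36.01 and 22.7, and hypothalamus IPs 40.3, 4.98, 93.9, 53.8 and 123. Its means were 10.002-fold, 18.8-fold, 15.8-fold and 41.0-fold below the inputs, in the same order. These levels rest on 301 counts in brown fat and on 25 to 99 counts in the other 3 groups, so counting error is large there. miR-152-3p was at 2135, 1919, 1558, 727 and 1317 CPM in brown fat IPs. Liver IPs had 368, 175, 427, 168 and 406 CPM, muscle IPs 88.7, 87.9, 94.1, 153 and 250.1, and hypothalamus IPs 116, 51.0, 185, 81.1 and 1908. Its means were 3.22-fold, 6.17-fold, 4.35-fold and 5.65-fold below the inputs. It was the member with the smallest fold in each of the 4 tissues, and in hypothalamus its IPs and inputs overlapped through library 5.

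In the test of IP against input within a tissue (edgeR, 10 libraries, adjusted over all miRNAs tested), miR-148a-3p and miR-148b-3p fell in all 4 tissues. In brown fat miR-148a-3p changed by a log2 value of -1.19 (SE 0.30, adjusted p = 0.0018), miR-148b-3p by -2.25 (SE 0.24, adjusted p = 1.82e-07) and miR-148a-5p by -2.04 (SE 0.54, adjusted p = 0.0026). That is 3 of 4 members, where 43.3% of the 305 tested miRNAs were called lower. miR-152-3p changed by -0.57 (SE 0.28, adjusted p = 0.0701) and was not called. It was called under 6 of 10 alternatives, among them the mouse as a block (-0.71, adjusted p = 0.0247) and total count scaling (-1.69), and without input 5 (-0.67, adjusted p = 0.0468) or IP 1 (-0.80, adjusted p = 0.0167).

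In liver all 4 members fell, where 46% of 200 tested were called lower: miR-148a-3p changed by -2.30 (SE 0.48, adjusted p = 0.000143, edgeR), miR-148b-3p by -2.42 (SE 0.49), miR-148a-5p by -4.40 (SE 0.70) and miR-152-3p by -0.96 (SE 0.42, adjusted p = 0.0415). The miR-152-3p call ended without IP 1 (-0.91, adjusted p = 0.0862), without IP 2 (-0.90, adjusted p = 0.0883), with counts ending in 0.5 rounded up (-0.75, adjusted p = 0.127) and with all 40 libraries in the fit (-1.24, adjusted p = 0.104). The value moved to -1.81, -1.82 and -1.81 without liver inputs 1, 2 and 5. The miR-148a-5p value rests on 2 IP counts, both in library 3, and was -9.32 without that library, where every remaining IP is at 0. The 4 hepatocyte markers, all detected, summed to 73.1% to 82.2% of liver IP counts against 45.3% to 52.2% of input counts. They did not move alike. miR-122-5p changed by 2.51 (adjusted p = 0.000228, edgeR) and miR-192-5p by -2.46 (adjusted p = 2.85e-05, edgeR). miR-194-5p had a mean log2(CPM + 1) of 12.8 in the inputs and 8.02 in the IPs. The part of this in the CPM of the members was not tested. Endothelial markers, both of 2 detected, were lower in the IPs of all 4 tissues without overlap. They were at 2.38% to 5.71% of input counts and 0.155% to 0.303% of IP counts in brown fat, and at 0.231% to 0.665% of input counts and 0.00448% to 0.0504% of IP counts over the other 3 tissues. Neuron markers in hypothalamus went from 5.02% to 20.4% of input counts to 1.53% to 4.00% of IP counts. Their part in the members' changes was not tested either.

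In muscle the 3 members tested fell, with 56.3% of 268 tested called lower: miR-148a-3p changed by -2.89 (SE 0.34, adjusted p = 4.44e-08, edgeR), miR-148b-3p by -3.46 (SE 0.40) and miR-152-3p by -1.43 (SE 0.28, adjusted p = 5.69e-05). The last call ended with all 40 libraries in the fit (-1.25, adjusted p = 0.0801). Red blood cell markers made up 0.0157% to 0.0444% of muscle input counts and 0.130% to 0.657% of muscle IP counts, with 2 of 4 markers at 0 in the IPs, and their part in these changes was not tested. In hypothalamus miR-148a-3p changed by -3.93 (SE 0.93, adjusted p = 0.0022) and miR-148b-3p by -4.59 (SE 0.67, adjusted p = 5.44e-05), 2 of 3 members tested, with 47.3% of 273 called lower. miR-152-3p changed by -1.86 (SE 1.12, adjusted p = 0.148). Without libraries 4 and 5 these values were -3.88, -4.67 and -1.85, and all 3 were called (adjusted p = 0.00174 for miR-152-3p). Leaving out IP 5 alone gave -5.52, -5.19 and -4.28. With the mouse as a block, miR-152-3p in hypothalamus was at -2.40 (adjusted p = 0.00101). miR-148a-5p had too few counts to be tested in muscle and hypothalamus.

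A large part of all miRNAs had lower values in the IPs, so the members are best read against the median of all miRNAs tested in the same tissue, which for brown fat was -0.34, for liver -0.78, for muscle -1.41 and for hypothalamus -1.04. miR-148a-3p lay below that median by -0.85, -1.52, -1.48 and -2.88 in these tissues, and miR-148b-3p by -1.91, -1.63, -2.04 and -3.55. miR-152-3p differed from it by -0.23, -0.17, -0.02 and -0.82. The scaling moved the medians, with total count, to -1.44 (brown fat), -2.40 (liver), -2.29 (muscle) and -1.84 (hypothalamus), but moved the members with them, and with that scaling miR-152-3p differed from the median by -0.24, -0.16, 0.13 and -0.64. The direction for miR-152-3p in muscle relative to the median thus depends on the scaling, and its value lay near 0. All members tested lay between the quartiles of the tested miRNAs in brown fat and muscle, while miR-148a-3p and miR-148b-3p in hypothalamus and miR-148a-5p in liver lay below the lower quartile.

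**Figure D3:**
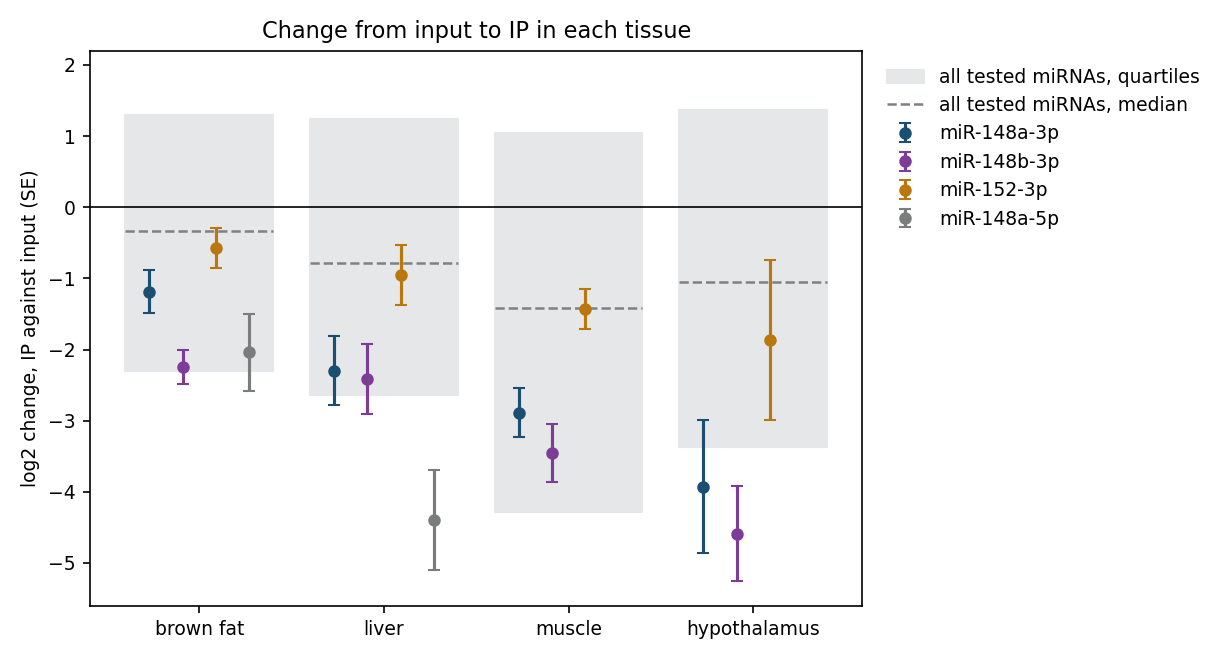
Points give the log2 change from input to IP by edgeR with its SE for each member in each tissue; the grey box and dashed line are the quartiles and the median over all miRNAs tested. miR-152-3p lies closest to the dashed line in all 4 tissues, and miR-148b-3p lies below miR-148a-3p in each.

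The ratios inside the libraries gave the same order without any scaling. In muscle, miR-152-3p was at 40.4%, 42.3%, 40.3%, 49.5% and 47.3% of miR-148a-3p in the inputs and at 90.0%, 168%, 147%, 112% and 137.5% in the IPs. It was thus above miR-148a-3p in 4 of 5 muscle IPs and in 0 of 5 muscle inputs, though the IP values rest on 28 to 82 counts of miR-152-3p and 20 to 91 of miR-148a-3p a library. The log2 ratio differed between IP and input by 1.55 (SE 0.17, adjusted p = 0.0238, exact permutation test, 12 tests). In hypothalamus the percentages were 8.85, 5.34, 7.23, 10.8 and 13.8 in the inputs and 33.7, 15.8, 35.98, 13.3 and 54.7 in the IPs, a log2 difference of 1.69 (SE 0.42, adjusted p = 0.0238, exact permutation test). On the deposited counts IP library 4, with 6 counts of miR-152-3p, lay just below input library 5, while on the scale of the test, with 0.5 added to each rounded count, the groups did not overlap. The call ended without hypothalamus input 2 (1.51, adjusted p = 0.0571) and without input 3 (1.62, adjusted p = 0.0571), where the smaller group limits the exact permutation test. Without libraries 4 and 5 of both kinds the difference was 1.99 with no overlap, and 3 against 3 libraries cannot give an unadjusted p below 0.1.

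In liver the ratio of miR-152-3p to miR-148a-3p was at 2.81%, 2.89%, 2.201%, 2.69% and 1.92% in the inputs and at 7.59%, 9.16%, 4.26%, 1.55% and 9.44% in the IPs. The low IP was library 4, the library of 11928 counts, with 2 counts of miR-152-3p. The log2 difference was 1.18 (SE 0.45, adjusted p = 0.0794, exact permutation test), and 1.56 without that library (adjusted p = 0.0159). In brown fat the percentages were 21.05, 21.8, 16.7, 18.01 and 18.5 in the inputs and 36.7, 16.3, 49.4, 29.004 and 25.8 in the IPs, a difference of 0.62 (SE 0.28, adjusted p = 0.0833, exact permutation test). IP library 2 was the only brown fat IP below the inputs, and without it the difference was 0.84 (adjusted p = 0.019). The ratio was therefore higher in the IPs on average in 4 of 4 tissues and called in 2. IP library 2 also had the lowest share of striated muscle markers among brown fat IPs, 5.06% against 14.1% to 25.7% in the other 4, and the part of this in the ratio was not tested.

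The ratio of miR-148b-3p to miR-148a-3p went the other way. In brown fat it was at 6.41%, 5.57%, 5.01%, 5.44% and 6.20% in the inputs and at 2.56%, 1.77%, 3.82%, 3.88% and 3.09% in the IPs, with no overlap. Its log2 difference of -0.97 (SE 0.22, adjusted p = 0.0238, exact permutation test) was the single call among 4 tissues. The other tissues had -0.69 in liver (adjusted p = 0.0816), -0.65 in muscle (adjusted p = 0.19) and -0.87 in hypothalamus (adjusted p = 0.325), and in each of them the groups overlapped. In hypothalamus the difference was -1.46 without libraries 4 and 5, where IP 2, with 0 rounded counts of miR-148b-3p, was lowest. Leaving out a single library gave calls in liver and muscle: without liver IP 3 the difference was -0.85 (adjusted p = 0.0317), without liver IP 5 -0.86 (adjusted p = 0.0317) and without muscle IP 4 -0.98 (adjusted p = 0.019). Muscle IP 4, at 26.3% with 13 counts of miR-148b-3p, was the only muscle IP above the inputs.

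**Figure D4:**
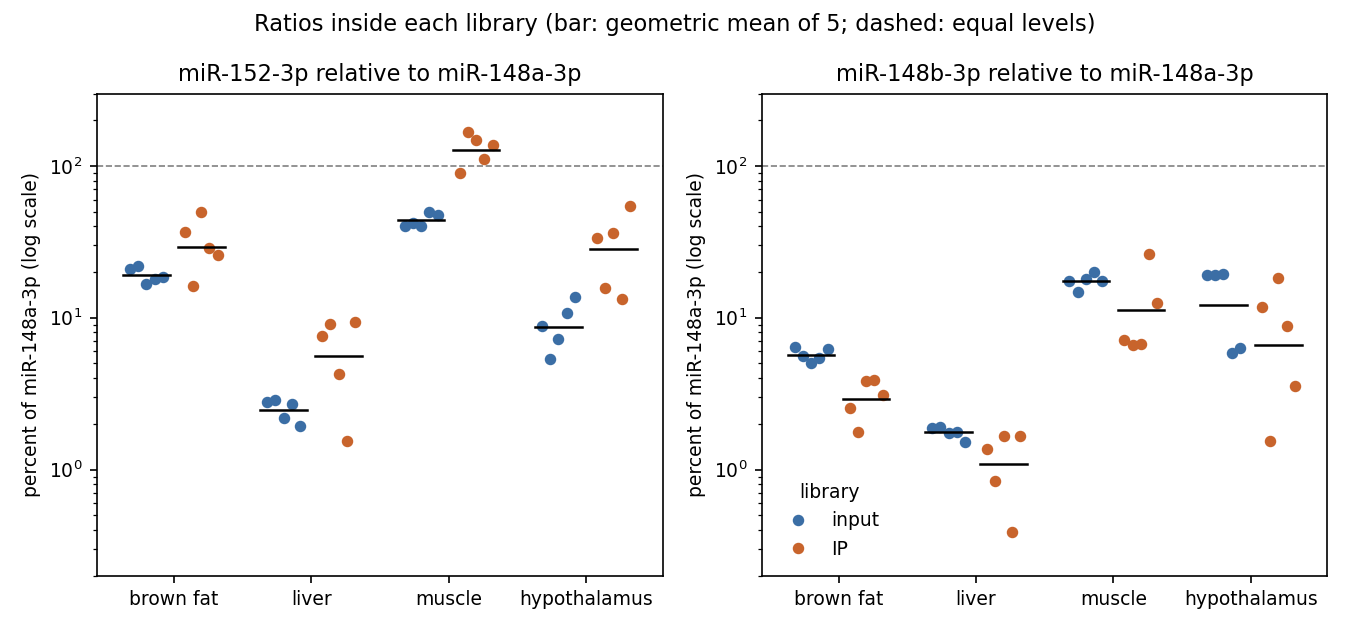
Each point is a library and gives miR-152-3p (left) or miR-148b-3p (right) as a percent of miR-148a-3p on a log axis, with the geometric mean of 5 libraries, after 0.5 was added to each count, as a bar. The miR-152-3p ratio lies above 100% only in 4 muscle IPs, and the miR-148b-3p ratio of the brown fat IPs lies below all brown fat inputs.

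Interaction terms, each fitted on 20 libraries, set the brown fat change from input to IP against that of liver, muscle or hypothalamus. Whether Cre or UPRT was active in those other tissues was not tested. These 3 comparisons share the brown fat libraries. miR-148a-3p fell less in brown fat than in muscle, with a log2 difference of 1.48 (SE 0.41, adjusted p = 0.0136, edgeR), which is 1 of 4 members tested, where 12.7% of 324 tested miRNAs were called higher. The median over all tested was 0.53. miR-148a-5p was at 4.29 (SE 3.84, adjusted p = 0.455), a value fitted against 0 rounded counts in muscle IPs, and its sign changed with limma-voom (-2.14). For miR-148a-3p, with all 40 libraries in the fit, the value was 1.501 with an adjusted p of 0.241. miR-148b-3p was at 0.96 (SE 0.42, adjusted p = 0.114) and 1.72 without muscle IP 4 (adjusted p = 0.00366), and miR-152-3p at 0.57 (SE 0.31, adjusted p = 0.206), close to that median.

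Against liver 0 of 4 members were called by edgeR (2 of 4, miR-148a-3p and miR-148a-5p, at an unadjusted p below 0.05), where 8.12% of 308 were called higher. That background is itself unstable: 26 miRNAs were called in either direction, 4 with the DESeq2 median of ratios, and 1 to 32 with 1 library left out, within 1.5 times of 26 in 2 of 20 such fits. miR-148a-3p was at 1.47 (SE 0.57, adjusted p = 0.103), miR-148a-5p at 2.77 (SE 1.11, adjusted p = 0.103; 8.63 without liver IP 3), miR-148b-3p at 0.51 (SE 0.56) and miR-152-3p at 0.76 (SE 0.51), with a median over all tested of 0.85. limma-voom gave 1.64 for miR-148a-3p (adjusted p = 0.0221), and without liver IP 3 edgeR called miR-148a-3p (1.81, adjusted p = 0.00811) and miR-148b-3p (1.29, adjusted p = 0.0444). Against hypothalamus 0 of 4 were called either, and 0 had an unadjusted p below 0.05, where 2.13% of 422 were called higher and 32.2% lower. The values were 0.92 (SE 0.87, adjusted p = 0.46) for miR-148a-3p, -0.77 (SE 1.45) for miR-148a-5p, 0.57 (SE 0.59) for miR-148b-3p and -0.45 (SE 1.11) for miR-152-3p, but the median over all tested was -1.30.

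That median, and the members with it, depended on the scaling and on the hypothalamus libraries. It was -0.21 with the DESeq2 median of ratios, 0.17 with total count and 1.88 (over the same miRNAs) without libraries 4 and 5. Without those libraries the 3p members were at 4.56 (adjusted p = 3.06e-06, edgeR), 4.06 and 2.98, all called, and miR-148a-5p at 2.16 (adjusted p = 0.227). Leaving out 1 library at a time, miR-148a-3p and miR-148b-3p were called in 17 of 20 fits, with 3.65 to 5.51 for miR-148a-3p. The 3 fits without a call, at 0.90 to 1.14 for miR-148a-3p, were those without brown fat input 4, brown fat IP 4 or hypothalamus input 3. The value from all 20 libraries is thus near the low end of these fits, and the cause was not tested. DESeq2 on all libraries called miR-148a-3p (2.21, adjusted p = 0.0484) and miR-148b-3p (1.68, adjusted p = 0.00215), and limma-voom called miR-148a-5p (-2.29, adjusted p = 0.0386). Relative to the median, miR-148a-3p was higher by 2.22 with all libraries and by 2.68 without libraries 4 and 5, and by 2.42 and 2.19 under the other scalings. miR-148b-3p was higher by 1.87 and 2.18 with and without them. In these terms miR-148a-3p was above the median of the difference between brown fat and each other tissue, by 0.62 for liver, 0.96 for muscle and 2.22 for hypothalamus. For liver and muscle its value lay below the upper quartile of all tested (1.73 and 1.74), and for hypothalamus above it (-0.19). With all libraries of the compared tissues, edgeR called the difference for muscle and not for liver or hypothalamus. miR-152-3p differed from that median by -0.09 for liver, 0.04 for muscle and 0.85 for hypothalamus (1.09 without libraries 4 and 5).

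**Figure D5:**
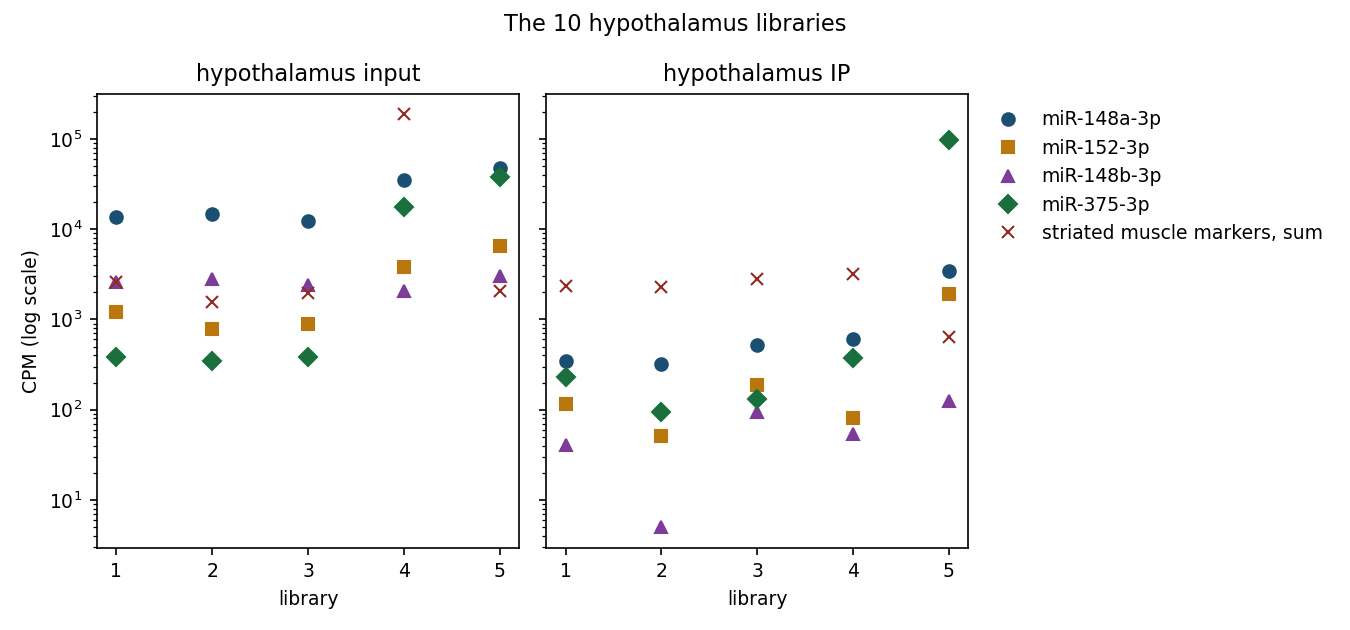
The vertical axis is the level in CPM (log scale) in the 5 input and 5 IP libraries of hypothalamus for 3 family members, miR-375-3p and the sum of 6 striated muscle markers. In inputs 4 and 5 and in IP 5, miR-375-3p, miR-148a-3p and miR-152-3p are all above their levels in libraries 1 to 3, while miR-148b-3p stays between 2068 and 3000.5 CPM over the inputs.

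In those hypothalamus libraries the members did not move alike. From inputs 1 to 3 to inputs 4 and 5, miR-152-3p went from 793 to 1224 CPM up to 3797 and 6513, and miR-148a-3p from 12365 to 14844 up to 35137 and 47278. miR-148b-3p stayed between 2068 and 3000.5 CPM. Neuron markers went down, from 18.9% to 20.4% of counts in inputs 1 to 3 to 5.02% in input 4 and 6.83% in input 5. The 5 miRNAs of the miR-200 family, found in epithelia and in some endocrine cells, summed to 110.03 to 314 CPM in inputs 1 to 3, to 6700.3 in input 4 and to 13675 in input 5. Library 4 also carried the striated muscle markers (18.9%) and hepatocyte markers (2.29% against 0.116% to 0.131% in the other 4 inputs) and brown adipocyte markers (1.13% against 0.105% to 0.21%). Their part in the levels of the members was not tested, and tissue of another kind in the sample and a change within the hypothalamus cannot be told apart here.

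miR-148a-5p, the other arm of the miR-148a hairpin, followed miR-148a-3p across the inputs at a far lower level. It was at 201, 174, 110.3, 103 and 147.7 CPM in liver, 34.3, 58.8, 45.6, 61.4 and 64.2 in brown fat, 25.3, 27.6, 25.9, 35.9 and 53.9 in hypothalamus and 3.66, 4.41, 2.76, 3.23 and 1.73 in muscle. Over summed counts it made up 0.201% of both arms in brown fat inputs (95% exact interval 0.181% to 0.223%, counting error only), 0.195% in liver (0.181% to 0.21%), 0.235% in muscle (0.182% to 0.3%) and 0.127% in hypothalamus (0.114% to 0.139%). The hypothalamus sum is mostly that of input library 5, with 300 of the 405 counts of miR-148a-5p. As a percent of miR-148a-3p it was at 0.183, 0.186, 0.209, 0.102 and 0.114 in hypothalamus inputs 1 to 5. Without libraries 4 and 5 the geometric mean was 0.196%. The ratio of miR-148a-5p to miR-148a-3p differed in 0 of 6 pairs of tissues (exact permutation tests, adjusted p from 0.131 to 0.627, all unadjusted p above 0.05). In the IPs the sums were 11 counts in brown fat, 2 in liver, 0 in muscle and 2 in hypothalamus. At the share seen in the inputs, 23.01, 12.4, 0.516 and 1.26 counts would have been present. In muscle and hypothalamus IPs a change of this ratio was therefore not detectable at this depth: 0 of 219 counts allows a share of up to 1.37% (3 counts), and the exact 95% upper bound is 1.67%. The tests there returned higher ratios in the IPs (adjusted p = 0.0238 in muscle and 0.0381 in hypothalamus, exact permutation test), but with 0 to 1 counts a library these values are set by the 0.5 added to each count.

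The 5p arms of the other hairpins were also minor. miR-152-5p made up 1.30% of both arms in brown fat inputs (95% exact interval 1.18% to 1.42%), 1.61% in liver, 1.27% in muscle and 1.24% in hypothalamus. miR-148b-5p made up 1.13%, 0.931%, 1.97% and 0.965%. Both shares were above that of miR-148a-5p in each tissue, without overlap of the intervals. In brown fat, miR-152-5p changed in the IPs by -1.81 (SE 0.53, adjusted p = 0.00507, edgeR), from 41.3 to 91.9 CPM in the inputs to 0 to 39.7 CPM, where 16 counts remained. In liver it changed by -2.13 (SE 0.73, adjusted p = 0.0111, edgeR), on 2 IP counts. In muscle it changed by -7.06 (SE 1.56, adjusted p = 0.000319, edgeR), on 0 rounded IP counts. Of all tested miRNAs, 43.3%, 46% and 56.3% were called lower in these tissues. It was not tested in hypothalamus. miR-148b-5p kept 5 counts in brown fat IPs and was not tested from input to IP in any tissue.

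Each member's profile over the 8 group means was set against the miRNAs whose mean level reached 100 CPM, by the root mean square difference of centred log2(CPM + 1) values. miR-152-3p was most like miR-27b-3p (0.44), miR-23b-3p (0.65) and miR-24-3p (0.66), which are encoded together in the miR-23b cluster. miR-148b-3p was most like miR-140-3p (0.55), miR-26a-5p (0.93) and miR-26b-5p (0.96). For miR-148a-3p the nearest were miR-101b-3p (1.10), the liver and gut miRNA miR-194-5p (1.26) and miR-148b-3p (1.34), all farther away than the neighbours of the other 3p members. miR-148a-5p was nearest to miR-26b-5p (0.99), miR-148b-3p (1.05) and miR-140-3p (1.17). miR-148a-3p and miR-152-3p differed by 1.69, the largest distance within the family. These are descriptions over 8 groups of 5 libraries that share pools and tissues.

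Other miRNAs were taken from fixed lists named for hepatocytes and adipocytes, whose entries are not all limited to these cells. On the adipocyte list, miR-143-3p and miR-30a-5p did not differ between brown fat and muscle inputs (-0.11 and -0.46, adjusted p = 0.81 and 0.0902, edgeR). Of its 10 entries, 6 were called higher in brown fat than in muscle and 1 lower (22.7% and 17.3% of all tested). Of 10 listed hepatocyte miRNAs, 8 were tested in the inputs, and 7 were lower in brown fat than in liver (19.6% of all tested), 7 higher in liver than in muscle (27.5% of all tested) and 8 higher in liver than in hypothalamus (32% of all tested), with list medians of -6.36, 6.57 and 6.61. In the IPs of liver 6 of the 7 tested fell and 1 rose, with 46% of all tested called lower and 28.5% higher. The last was miR-122-5p, the main hepatocyte miRNA (2.51, SE 0.55, adjusted p = 0.000228, edgeR). The median of this list was -2.49 against -0.78 for all tested. A rise of miR-122-5p was not particular to liver. In muscle IPs it changed by 4.56 (SE 0.85, adjusted p = 3.2e-05, edgeR). In hypothalamus inputs 1 to 5 it was at 201, 103, 113, 17083 and 323 CPM. The hypothalamus IPs had 697, 1254, 643, 1875 and 333 CPM of it. Of 10 listed adipocyte miRNAs, 7 were higher in brown fat than in liver, where 26.4% of all tested were called higher, and 0 lower. In brown fat IPs, where 43.3% of all tested were called lower and 36.7% higher, 5 of these 10 fell, a share close to that background, and 1 rose, miR-378a-3p (1.23, SE 0.28, adjusted p = 0.000652), an abundant miRNA of brown fat from an intron of Ppargc1b. The list median was -0.69 against -0.34 for all tested.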

How the data were processed

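Small RNA of 40 libraries was prepared with an NEBNext small RNA kit, per the labels' protocols. The authors deposited 1 table of expected counts per mature miRNA. The submitters' processing notes name fastp, STAR, featureCounts and mm10. Versions, the annotation and the treatment of reads shared by several entries were not given in the sources used here. Of the positive values, 18.9% were whole within 0.001 (10.2% for the 4 members), so reads may be split between entries, and members that differ by few bases may share reads. Counts were rounded (0.5 to the even number); the largest effect on any library's total was 0.127%. Groups, mice and pools come from the labels, and 0 columns were left without a sample.

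Tests used the quasi-likelihood test of edgeR 4.0.16 in R 4.3.3, after filterByExpr by group and TMM scaling, on the whole table, with Benjamini-Hochberg adjusted p below 0.05 as the threshold. IP against input used the 10 libraries of a tissue, interactions 20 libraries and input comparisons the 20 inputs. Ratios of members used exact two-sided permutation tests with 0.5 added to each count. These tests took the libraries as independent and did not use the mouse. With 5 pairs an exact two-sided paired test cannot give an unadjusted p below 0.0625. Alternatives were DESeq2 1.42.0, limma 3.58.1 (voom), DESeq2 size factors (RLE) or total count as scaling, no filter, a mean of at least 10 CPM, all 40 libraries in 1 fit, the mouse as a block, 1 count added to ratios and each library left out. Other rounding, and leaving out hypothalamus libraries 4 and 5, were added after seeing the data. The edgeR script was tested on simulated data. PCR reads carry no molecular identifiers, so the exact intervals for the share of an arm cover counting error only. The intervals of edgeR log2 differences were instead taken from their SE, which includes spread between libraries.

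In 19 of 20 same-numbered pairs of input and IP the labels name a single mouse, and in brown fat number 5 they name mice 8 and 10. Deviations from the group means, over 185 miRNAs, had a correlation within the 19 pairs that ran from -0.10 to 0.74 (median 0.15) and was over 0.1 in 13. The mouse was an alternative block in the edgeR tests and not in the ratio tests. The members, lists and tests were chosen with earlier results of these data known. The text gives all 4 members in each comparison, the 2 opposite arms, list counts with members of highest mean CPM, and the 3 entries most like each member; the other miRNAs named were chosen after their values were seen.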

Additional observations from a re-analysis of the deposited data

Results flagged for a closer look

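A library of a group of 5 was taken as apart when its gap to the next library was more than 0.71 of the group's range (Dixon's 95% value). This was tried on 48 sets, 32 of a member in a group and 16 of a ratio of 3p members in a group, and chance gives about 1 in 20. It held in 6, all of them levels of a member. For miR-148a-3p these were brown fat input library 1 at 19634 CPM, below the next at 26651 CPM, liver input library 5 at 106245 CPM, above the next at 75053 CPM, and hypothalamus IP library 5 at 3485 CPM, above the next at 612 CPM. For miR-152-3p it was hypothalamus IP library 5 at 1908 CPM, above the next at 185 CPM. For miR-148a-5p, liver IP library 3 at 4.504 CPM (2 counts) and muscle IP library 4 at 1.43 CPM (a deposited count of 0.5) were apart because the other 4 libraries were at 0.

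The change of miR-148a-3p from input to IP differed between brown fat and muscle by 1.48 on the log2 scale (adjusted p = 0.0136, edgeR interaction), with a smaller fall in brown fat. The median over all tested was 0.53, and 12.7% of 324 miRNAs were called higher. The call ended with all 40 libraries in the fit (adjusted p = 0.241, edgeR). Every mouse pair fell in both tissues, 4 of 4 in brown fat and 5 of 5 in muscle.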

How the results depend on the processing

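The count of called miRNAs stayed within 1.5 times in 112 of 135 alternatives, members kept direction and side of the threshold in 456 of 519, and ratios in 69 of 72. Values below are log2 differences by edgeR unless another tool is named, and the cause of a change was not tested. Low counts limit miR-148a-5p and miR-148b-3p in the IPs, and liver IP 4 has 11928 counts in all.

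With the mouse as a replicate block the brown fat to liver input count was 104 against 204. miR-152-3p was then called from input to IP in brown fat (-0.71) and hypothalamus (-2.40) and for brown fat over hypothalamus input (1.82), and miR-148b-3p for brown fat over muscle input (0.89). Lost were miR-148b-3p for brown fat against liver (-0.74) and liver against hypothalamus (0.34) and miR-148a-5p for brown fat against hypothalamus (0.95). The block changed no other call among members.

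With RLE scaling the interaction counts were 4 (liver) and 59 (hypothalamus) against 26 and 145. miR-152-3p was called from input to IP in brown fat (-0.92) and for brown fat and liver over hypothalamus (1.24 each), miR-148b-3p in the hypothalamus interaction (1.74), and miR-148a-5p was lost for muscle against hypothalamus (-0.64). With total count the counts were 42 in the hypothalamus interaction, 310 for brown fat against liver and 372 for brown fat against muscle (178 otherwise). miR-152-3p was called from input to IP in brown fat (-1.69) and hypothalamus (-2.48), and over inputs for brown fat against liver (1.37), muscle (3.07) and hypothalamus (0.90) and liver against muscle (1.70). It reversed for muscle against hypothalamus (-2.17). miR-148b-3p reversed for brown fat against liver (0.11) and liver against hypothalamus (-0.93), and was called for brown fat against muscle (2.66) and hypothalamus (-0.82) and in the hypothalamus interaction (1.97). miR-148a-5p was lost for brown fat against hypothalamus (0.61).

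The scaling also moved the split of calls. From input to IP, higher and lower calls were 112 and 132 in brown fat (55 and 174 with total count), 57 and 92 in liver (RLE 41 and 127, total count 29 and 135) and 77 and 129 in hypothalamus (53 and 153 with total count). In the interactions they were 25 and 1 for liver (3 and 1 with RLE) and 9 and 136 for hypothalamus (RLE 23 and 36, total count 29 and 13). Between inputs they were 117 and 87 for brown fat against liver (284 and 26 with total count), 101 and 77 for brown fat against muscle (75 and 102 with RLE, 365 and 7), 122 and 121 for liver against muscle (219 and 57), 142 and 217 for liver against hypothalamus (58 and 305) and 138 and 231 for muscle against hypothalamus (39 and 358).

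Without a filter the counts from input to IP were 401 in brown fat, 235 in liver, 345 in muscle and 391 in hypothalamus, against 244, 149, 228 and 206. The interaction counts were 5 (liver) and 94 (hypothalamus), and 597 were called for brown fat against hypothalamus inputs, against 373. miR-152-3p was called in brown fat (-1.003) and for brown fat over hypothalamus (0.995), and miR-148b-3p was lost for liver against hypothalamus (0.64). With a mean of at least 10 CPM, 4 were called in the liver interaction and 311 in hypothalamus. For brown fat against hypothalamus inputs miR-148a-5p was lost (0.77) and miR-148b-3p called (-0.53).

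With all 40 libraries in 1 fit, 329 were called in hypothalamus and 0, 20 and 66 in the liver, muscle and hypothalamus interactions. The 0 is by edgeR; limma-voom gave 87. Members lost were miR-148a-3p in the muscle interaction (1.501), miR-148a-5p for brown fat against hypothalamus (0.47), miR-148b-3p for liver against hypothalamus (0.50) and miR-152-3p from input to IP in liver (-1.24) and muscle (-1.25). Gained were miR-148a-3p (2.62) and miR-148b-3p (2.07) in the hypothalamus interaction and miR-152-3p in hypothalamus (-1.82).

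DESeq2 called 92 in the hypothalamus interaction, with miR-148a-3p (2.21) and miR-148b-3p (1.68), and miR-152-3p in brown fat (-0.92) and for brown fat and liver over hypothalamus (1.24 each); miR-148a-5p was lost for muscle against hypothalamus (-0.65). limma-voom called miR-152-3p in brown fat (-0.67) and hypothalamus (-2.48) and for brown fat (1.82) and liver (1.71) over hypothalamus. In the interactions it called miR-148a-3p (1.64, liver), miR-148b-3p (1.12, muscle) and miR-148a-5p (-2.29, hypothalamus), and miR-148a-5p reversed for muscle (-2.14).

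With counts not rounded, or 0.5 rounded up, 5 were called in the liver interaction. miR-152-3p was called for brown fat over hypothalamus (1.16, not rounded) and lost in liver (-0.75, 0.5 rounded up). Without hypothalamus libraries 4 and 5 the hypothalamus interaction was 4.56 for miR-148a-3p, 4.06 for miR-148b-3p and 2.98, reversed, for miR-152-3p. Brown fat was over hypothalamus by 1.55 for miR-148a-3p, and miR-152-3p was called for brown fat (2.98), liver (2.87) and muscle (2.001) over hypothalamus and from input to IP (-1.85). miR-148a-5p was lost for muscle against hypothalamus (-0.32). Of the ratios to miR-148a-3p, IP minus input in hypothalamus was no longer called for miR-152-3p (1.99) and miR-148a-5p (2.48), where 3 against 3 libraries cannot pass, and hypothalamus minus brown fat input was called for miR-148b-3p (1.75).

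With 1 library left out at a time the lowest and highest values were as follows. The called count ran from 1 to 32 in the liver interaction and from 45 (without muscle input 4) to 75 in the muscle interaction. From input to IP, the miR-152-3p ranges were -0.80 to -0.38 (brown fat), -1.82 to -0.74 (liver) and -4.28 to -1.04 (hypothalamus). In the liver interaction miR-148a-3p ran from 0.76 to 1.81 and miR-148b-3p from 0.041 to 1.29, and in the muscle interaction miR-148b-3p from 0.87 to 1.72. In the hypothalamus interaction the ranges were 0.90 to 5.51 (miR-148a-3p), -0.78 to 3.28 (miR-148a-5p), 0.53 to 4.05 (miR-148b-3p) and -0.50 to 4.73 (miR-152-3p); the last reversed in 3 fits, at 2.997 to 4.73, and miR-148a-5p in 1, at 3.01. For brown fat against muscle inputs miR-148b-3p ran from 0.42 to 0.63. Against hypothalamus, brown fat ran from 0.078 to 0.83 (miR-148a-3p), 0.68 to 1.44 (miR-148a-5p), -0.54 to -0.25 (miR-148b-3p) and 0.79 to 1.92 (miR-152-3p), liver from 0.69 to 1.83 (miR-152-3p), and muscle from -1.21 to -0.43 (miR-148a-5p) and -0.15 to 0.99 (miR-152-3p). The ratio to miR-148a-3p, IP minus input, ran for miR-152-3p from 0.44 to 0.84 (brown fat), 0.99 to 1.56 (liver) and 1.45 to 1.91 (hypothalamus), for miR-148b-3p from -0.86 to -0.32 (liver) and -0.98 to -0.45 (muscle), and for miR-148a-5p from -1.22 to -0.53 (liver) and 1.68 to 2.80 (hypothalamus). Between inputs it ran from 0.92 to 1.35 for miR-148b-3p in hypothalamus minus brown fat, and for miR-148a-5p from 0.15 to 0.38 in muscle minus brown fat and -0.72 to -0.43 in hypothalamus minus muscle.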
